A study of Homo sapiens with 19 samples.

Results

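The genes described here encode the transforming growth factor β (TGF-β) ligands, their receptors and the proteins that keep the ligands latent in human embryonic stem cells (hESCs). They are 9 of the 33382 genes listed in each of 19 RNA-seq samples and were taken by symbol, each of which stood for 1 row: TGFB1, TGFB2 and TGFB3 (ligands), TGFBR1, TGFBR2 and TGFBR3 (receptors), LTBP1 and LTBP2 (latent TGF-β binding proteins) and TGFBI (a secreted matrix protein named for its induction by TGF-β). TGF-β ligands are secreted as inactive dimers that stay attached to their own propeptide, and LTBP1 ties this latent complex to the extracellular matrix, from which integrins and proteases release the active ligand. Active ligand binds TGFBR2, which phosphorylates TGFBR1, and TGFBR1 phosphorylates SMAD2 and SMAD3, which enter the nucleus with SMAD4. SMAD2 and SMAD3 signalling maintains primed hESCs, where it is driven by activin, NODAL or TGF-β, and TGF-β is also a classic inducer of mesenchymal and matrix genes.

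H1 is an established line of primed hESCs, grown here on matrigel in mTeSR1, a defined medium that itself supplies TGF-β protein, so that the values below are the cells' own mRNA only. Polycomb repressive complex 2 (PRC2) places the repressive mark H3K27me3, with EZH1 or EZH2 as its catalytic subunit and EED and SUZ12 as core partners. Wild-type (WT) H1 cells had 2 samples, as had each of 5 knockout lines, namely EZH1-/-, EZH2-/-, EZH2-/-/EZH1-/-, SUZ12-/- and EED-/- H1. In the knockout lines a functional domain had been removed with CRISPR/Cas9 and a targeting vector, the labels name another clone or passage for each of a knockout line's 2 samples, and the EZH2-/-/EZH1-/- H1 cells were made from EZH2-/- H1 cells. H1-EED-/-/EED-OE cells lack EED and carry a doxycycline (DOX)-driven EED transgene. There was 1 such sample kept with DOX, and 1 more for every withdrawal day studied (8, 12, 16, 20, 24 and 28). The title of the DOX sample also carries day 28, which its other labels do not give, so it was used without a day. H3K27me3 is described by the study as lost from EED-/-, EZH2-/-/EZH1-/- and SUZ12-/- H1 cells (below, the 3 PRC2-null lines). The study describes it as still present in EZH1-/- and EZH2-/- H1 cells, but at lower levels than in WT H1 cells. WT, EZH1-/- and EZH2-/- H1 are below the 3 retaining lines.

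Levels are in TPM, a share of all transcripts, which the authors scaled to a common sum per sample and which correct for transcript length. The depth behind them is unknown, so precision rests on replicates alone. Between the samples of a line, the SD of the log2 ratio over genes of at least 10 TPM was 0.166 in SUZ12-/- H1, 0.235 to 0.250 in EZH1-/- and WT H1, 0.514 to 0.585 in EED-/- and EZH2-/- H1, and 0.758 in EZH2-/-/EZH1-/- H1 cells. The SUZ12-/- samples were thus the most alike and the EZH2-/-/EZH1-/- samples the least alike, and without read counts it could not be tested whether the former came from separate cultures. Their p-values may then rest on technical spread, and results that rest on them are also given with them averaged to 1 sample. EED mRNA was 14.25 and 22.36 TPM in EED-/- H1 and 17.30 and 21.96 TPM in WT H1 cells, and SUZ12, EZH1 and EZH2 mRNA also remained detected in the lines that lack them. A TPM over the whole gene does not measure the deleted domain, so these levels check no label. EED was 108.54 TPM with DOX and 12.64 to 31.56 TPM on the withdrawal days.

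Markers of pluripotency differed between the libraries. The summed level of 9 pluripotency markers was 5943 to 7200 TPM in the retaining samples, 182 to 492 TPM in the PRC2-null samples, 5240 to 6441 TPM with DOX and on days 8 to 16, 2704 TPM on day 20 and 469 to 478 TPM on days 24 and 28. All 9 markers were at 1 TPM or more in the SUZ12-/- samples, whereas NANOG and PRDM14 were below 1 TPM in both EED-/- samples. The 6 blood markers summed to at most 2.69 TPM in any sample. The H1 label was thus matched by hESC markers in the retaining samples and with DOX, and much less so in the PRC2-null samples. In bulk RNA, fewer cells of a type and less RNA per cell cannot be told apart.

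The promoters of the ligand genes are shown because the ligands, as described below, rose to much higher levels in some samples while differing in timing. TGFB2 and TGFB3 started near-absent, and TGFB1 at 5.28 to 9.34 TPM in the retaining samples. They are RefSeq windows on GRCh38.p14, from 250 bases before to 50 bases after an annotated start, read on the strand of the gene. The TGFB1 window is chr19:41353873-41354172 (minus strand), the TGFB2 window chr1:218345086-218345385 (plus strand), and TGFB3 has an inner start with the window chr14:75981946-75982245 and an outer start with chr14:75982962-75983261 (both minus strand). Capitals mark TATAAA, the core of a TATA box, which was searched on both strands.
TGFB1: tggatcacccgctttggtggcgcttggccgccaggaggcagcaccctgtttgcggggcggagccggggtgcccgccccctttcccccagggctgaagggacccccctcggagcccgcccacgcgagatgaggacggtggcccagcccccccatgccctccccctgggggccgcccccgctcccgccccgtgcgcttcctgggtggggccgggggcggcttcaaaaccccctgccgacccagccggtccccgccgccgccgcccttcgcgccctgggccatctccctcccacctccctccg
TGFB2: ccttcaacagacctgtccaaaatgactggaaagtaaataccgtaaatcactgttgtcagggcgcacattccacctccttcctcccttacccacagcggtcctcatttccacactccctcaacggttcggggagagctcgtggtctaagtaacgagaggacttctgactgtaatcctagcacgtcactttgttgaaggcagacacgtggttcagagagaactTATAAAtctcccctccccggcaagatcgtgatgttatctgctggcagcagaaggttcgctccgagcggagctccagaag
TGFB3, inner start: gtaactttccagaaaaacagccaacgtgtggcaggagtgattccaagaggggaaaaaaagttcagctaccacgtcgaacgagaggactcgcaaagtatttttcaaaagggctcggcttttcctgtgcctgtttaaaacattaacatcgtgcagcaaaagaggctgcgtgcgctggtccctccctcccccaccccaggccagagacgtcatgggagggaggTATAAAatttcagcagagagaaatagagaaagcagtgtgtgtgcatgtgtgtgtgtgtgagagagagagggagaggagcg
TGFB3, outer start: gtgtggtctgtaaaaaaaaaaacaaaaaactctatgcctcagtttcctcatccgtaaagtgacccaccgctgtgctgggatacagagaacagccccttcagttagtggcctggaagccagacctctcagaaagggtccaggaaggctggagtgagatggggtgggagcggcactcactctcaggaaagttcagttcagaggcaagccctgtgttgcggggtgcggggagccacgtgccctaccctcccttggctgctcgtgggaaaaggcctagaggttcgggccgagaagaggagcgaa
TATAAA was found in the TGFB2 window, where it begins at position -29 from the start, and in the inner TGFB3 window at position -30, on the gene's own strand in both. It was not in the TGFB1 window, which instead holds 28 CpG dinucleotides against 14 in the TGFB2 window and 10 and 11 in the TGFB3 windows. Over all 35116 windows of the table, 11.5% held TATAAA on either strand and the median CpG count was 14, with quartiles of 4 and 28. All 9 genes matched this table, with 20 windows in all, and the windows of the other 6 genes held no TATAAA. CpG counts were 34 for TGFBR3, 27 for TGFBI and 26 for LTBP2, which have 1 window each, and ran from 1 to 47 over the 8 windows of TGFBR1. These letters describe the windows only, and no measure of H3K27me3 or of a bound factor was analysed here.

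All 9 genes had higher mRNA levels in the PRC2-null lines than in the retaining lines, in every sample: the lowest PRC2-null sample lay above the highest retaining sample for each. This was so for 24.2% of the 19100 genes tested. With limma on log2(TPM + 1), with calls at 1% FDR (false discovery rate) that were also past 3-fold, all 9 rose, beside 13.5% of all genes tested that rose by the same rule. TGFB2 and LTBP2 were below 1 TPM in all 6 retaining samples and TGFB3 in all but 1, and so they passed the filter on low values through the PRC2-null samples where they were high. They had to differ, and are not counted as support. The remaining 6 genes, TGFB1, the 3 receptors, TGFBI and LTBP1, were at 1 TPM or more in at least 2 retaining samples and all 6 rose, as did 10% of the 15841 genes tested that met the same condition. The median log2 change of the 6 genes was 2.83, against 0.10 for those genes. Under another scaling of the samples, by median ratios, the median gene shifted by -0.21.

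TGFB1 (chr19:41301587-41353922, minus strand) was the main ligand transcript of undifferentiated H1 cells. It was 5.28 and 6.25 TPM in WT H1, 7.31 and 6.44 TPM in EZH1-/- H1 and 9.34 and 6.15 TPM in EZH2-/- H1 cells. It was 186.63 and 115.78 TPM in EED-/- H1, 82.30 and 77.43 TPM in SUZ12-/- H1 and 152.16 and 153.09 TPM in EZH2-/-/EZH1-/- H1 cells. The ranges of the latter overlapped those of EED-/- H1, and SUZ12-/- H1 lay below both. Its log2 change between PRC2-null and retaining lines was 3.99 (SE 0.15, adjusted p = 5.79e-09). With 2 samples a line, overlap between single lines, here and below, only describes the samples. The share of all genes without such overlap was not computed.

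TGFB2 (chr1:218345336-218444619, plus strand) had the largest log2 change of the 3 ligands and the widest spread between PRC2-null lines. It was 0.15 to 0.53 TPM in the 6 retaining samples (median 0.48). It reached 112.93 and 123.98 TPM in EED-/- H1, 88.14 and 64.73 TPM in EZH2-/-/EZH1-/- H1 and only 19.61 and 17.99 TPM in SUZ12-/- H1 cells. No 2 of these 3 lines overlapped, but in the direct tests below limma called only the differences of SUZ12-/- H1 from the other lines. The log2 change was 5.35 (SE 0.14, adjusted p = 6.85e-10). As TGFB2 passed the filter on low values through the PRC2-null samples, this p is not counted as support. An antisense transcript, TGFB2-AS1, was at most 1.16 TPM in the lines, and because the library kit does not mark strand its reads and those of TGFB2 cannot be told apart where the genes overlap.

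TGFB3 (chr14:75958097-75983011, minus strand), by contrast, reached much the same level in each PRC2-null line. It was 0.25 to 1.36 TPM in the retaining samples (median 0.57), with the highest value in EZH2-/- H1 replicate 1. It was 25.47 and 29.04 TPM in EED-/- H1, 25.67 and 26.80 TPM in SUZ12-/- H1 and 19.55 and 22.73 TPM in EZH2-/-/EZH1-/- H1 cells. EED-/- and SUZ12-/- H1 cells overlapped. The log2 change was 3.98 (SE 0.16, adjusted p = 8.69e-09), and this p is likewise not counted as support.

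The make-up of the ligand transcripts differed as well as their sum. The summed TPM of the 3 ligand genes was 6.60 to 11.18 in the retaining samples, of which TGFB1 held 80.0 to 93.7%. The sum was 122.22 to 325.03 TPM in the PRC2-null samples, of which TGFB1 held 43.1 to 64.5%. TGFB1 was thus a smaller share of a much larger sum in every PRC2-null sample. TGFB2 held 46.1% in EED-/- H1 replicate 2, more than TGFB1 there, and 14.7 to 15.4% in SUZ12-/- H1 cells, where TGFB3 held 20.1 to 21.9%.

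The signalling receptors TGFBR1 and TGFBR2 were already present in retaining cells and had smaller log2 changes than the ligands. TGFBR1 (chr9:99104038-99154192, plus strand), the type I receptor kinase, was 17.17 and 19.15 TPM in WT H1 and 7.72 to 16.36 TPM in EZH1-/- and EZH2-/- H1 cells. It was 92.29 and 78.83 TPM in EED-/- H1, 42.39 and 38.52 TPM in SUZ12-/- H1 and 67.93 and 42.51 TPM in EZH2-/-/EZH1-/- H1 cells. SUZ12-/- H1 cells had the lowest level of the PRC2-null lines and EED-/- H1 cells the highest, without overlap between neighbours in that order. In the direct tests between these lines TGFBR1 was not called. The log2 change was 2.00 (SE 0.19, adjusted p = 3.78e-06).

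TGFBR2 (chr3:30606601-30694142, plus strand), the type II receptor kinase that binds the ligand, was 3.21 to 6.20 TPM in the retaining samples (median 5.84). It was 113.92 and 48.26 TPM in EED-/- H1, 33.90 and 30.52 TPM in SUZ12-/- H1 and 23.93 and 13.05 TPM in EZH2-/-/EZH1-/- H1 cells. The lines did not overlap, but both EED-/- and EZH2-/-/EZH1-/- replicates were far apart. In the direct tests between these lines TGFBR2 was not called with all samples. The log2 change was 2.52 (SE 0.24, adjusted p = 4.25e-06). TGFBR1 exceeded TGFBR2 by 1.80 to 3.40 times in the retaining samples, and by 2.84 and 3.26 times, within that range, in EZH2-/-/EZH1-/- H1 cells. The ratio was below it at 1.25 and 1.26 in SUZ12-/- H1 and 0.81 and 1.63 in EED-/- H1 cells, and so did not separate the PRC2-null from the retaining lines.

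TGFBR3 (chr1:91680343-91906335, minus strand) encodes betaglycan, a co-receptor without kinase activity that presents ligand, TGF-β2 above all, to TGFBR2. It was 0.83 to 1.59 TPM in the retaining samples (median 1.27). It was 112.43 and 111.70 TPM in SUZ12-/- H1 but only 6.09 and 11.53 TPM in EED-/- H1 and 13.71 and 2.55 TPM in EZH2-/-/EZH1-/- H1 cells. The 2 latter lines overlapped, and SUZ12-/- H1 cells stood far above both. The log2 change over the 3 lines was 3.14 (SE 0.31, adjusted p = 5.43e-06). It was 1.88 without the SUZ12-/- line. With limma on 2 groups of 6 samples, where spread between lines counts, the adjusted p was 0.0019.

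TGFBI (chr5:136028988-136063818, plus strand), a matrix protein that binds integrins and collagens, reached the highest levels of the 9 genes. It was 9.35 to 13.90 TPM in the retaining samples (median 10.40). It was 1257.44 and 465.50 TPM in EED-/- H1, 563.38 and 559.06 TPM in SUZ12-/- H1 and 443.03 and 509.55 TPM in EZH2-/-/EZH1-/- H1 cells. The lowest PRC2-null sample was 31.9 times the highest retaining sample. Its log2 change of 5.62 was also the largest of the 9 genes (SE 0.21, adjusted p = 5.56e-09).

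The latency proteins differed in where they started. LTBP1 (chr2:32946953-33399509, plus strand), which anchors latent TGF-β in the matrix, was at 13.15 to 22.50 TPM in the retaining samples (median 17.10), higher there than any ligand gene. It was 70.42 and 89.12 TPM in EED-/- H1, 93.99 and 92.21 TPM in SUZ12-/- H1 and 101.20 and 30.68 TPM in EZH2-/-/EZH1-/- H1 cells. The lowest of these was 1.36 times the highest retaining sample, the narrowest gap of the 9 genes. The log2 change was 2.05 (SE 0.24, adjusted p = 2.37e-05).

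LTBP2 (chr14:74498183-74612378, minus strand), a matrix protein of elastic fibres that, unlike LTBP1, is not known to bind latent TGF-β, was 0.44 to 0.60 TPM in the retaining samples. It was 94.09 and 35.05 TPM in EED-/- H1, 11.97 and 11.38 TPM in SUZ12-/- H1 and 16.94 and 3.41 TPM in EZH2-/-/EZH1-/- H1 cells. EED-/- H1 cells stood above the other PRC2-null lines, which overlapped. The log2 change was 3.62 (SE 0.34, adjusted p = 3.44e-06). As for TGFB2 and TGFB3, this p is not counted as support.

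Summed markers of several other cell types were also higher in PRC2-null samples, though not in every list and line. The endothelial and neural sums overlapped between PRC2-null and retaining samples. The summed level of 10 mesenchymal and smooth muscle markers was 393 to 723 TPM in the retaining samples, 4057 to 4215 TPM in EED-/- H1, 2976 to 5040 TPM in EZH2-/-/EZH1-/- H1 and 16810 to 17265 TPM in SUZ12-/- H1 cells. COL3A1 and LUM were below 1 TPM in every retaining sample, and MYH11, a mark of mature smooth muscle, was at most 1.38 TPM in every sample of the 6 lines. THY1, also on this list, went the other way, at 347 to 688 TPM in retaining and 50 to 212 TPM in PRC2-null samples. The 7 endothelial markers summed to 46 to 146 TPM in the retaining samples and 59 to 547 TPM in the PRC2-null samples, with PECAM1, CDH5, VWF and EMCN below 1 TPM in all retaining samples. The 9 endoderm, yolk sac and liver markers summed to 5.03 to 15.13 TPM in the retaining samples, 1462 to 3776 TPM in EED-/- and EZH2-/-/EZH1-/- H1 and 19575 to 20387 TPM in SUZ12-/- H1 cells. The 6 trophoblast markers summed to 13.1 to 16.8 TPM and 110 to 449 TPM in retaining and PRC2-null samples, with CGB5 and GCM1 below 1 TPM throughout, and the 6 neural markers to 154 to 360 TPM and 214 to 1075 TPM, with SOX1 below 1 TPM throughout. The part of these cells in the levels of the 9 genes was not tested.

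Each knockout line was also set against WT H1, which serves as control in all 5 of these comparisons. In EED-/- H1 cells 8 of the 9 genes rose, beside 16.2% of all genes tested. As before, TGFB2, TGFB3 and LTBP2 passed the filter on low values through the PRC2-null samples. Their calls here and in the other PRC2-null lines below are not counted as support. The other genes that rose were TGFB1, TGFBR1, TGFBR2, TGFBI and LTBP1. TGFBR3 did not pass, with a log2 change of 1.87 (95% interval 0.69 to 3.04, adjusted p = 0.013). The other changes ran from 2.17 for TGFBR1 to 6.31 for TGFB2.

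In SUZ12-/- H1 cells 8 of the 9 genes rose, beside 14.5% of all genes tested. Apart from TGFB2, TGFB3 and LTBP2, these were TGFB1, TGFBR2, TGFBR3, TGFBI and LTBP1. Here TGFBR1 did not pass, with a log2 change of 1.11 (95% interval 0.40 to 1.83, adjusted p = 0.016), and TGFBR3 had the largest change, 5.45. With the SUZ12-/- samples averaged to 1, 7 genes rose and LTBP2 did not pass. LTBP2 was also lost without either WT or either SUZ12-/- sample, and TGFBR2 without WT H1 replicate 2 or SUZ12-/- H1 replicate 1.

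In EZH2-/-/EZH1-/- H1 cells 6 of the 9 genes rose, beside 11.6% of all genes tested, and the 3 receptors did not. Those that rose apart from TGFB2, TGFB3 and LTBP2 were TGFB1, TGFBI and LTBP1. TGFBR1 passed the FDR with a log2 change of 1.52 (adjusted p = 0.0033), below 3-fold. TGFBR2 had a change of 1.44 (adjusted p = 0.016) and TGFBR3 of 1.48 (adjusted p = 0.043). The calls in this line depended on which replicate entered. TGFBR3 was 5.38 times, LTBP2 4.97 times and LTBP1 3.30 times as high in replicate 1 as in replicate 2, whereas TGFB1, TGFB3 and TGFBI differed by less than 1.2-fold. Without replicate 2 all 9 genes rose, and without replicate 1, or without either WT sample, only the 3 ligands and TGFBI did.

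In EZH1-/- H1 cells limma called 0 of the 9 genes, beside 0.0995% of all genes tested that were called in either direction. An unadjusted p under 0.05 was found for 0 of the 9, beside 16.0% of all genes tested. The largest change was that of TGFBR1, -0.56 (95% interval -1.27 to 0.16, adjusted p = 0.45). In EZH2-/- H1 cells limma likewise called 0, beside 0% of all genes tested, and 0 had an unadjusted p under 0.05, beside 5.81%. The largest change was again that of TGFBR1, -0.64 (95% interval -1.35 to 0.08, adjusted p = 0.90). On the log2(TPM + 1) scale the intervals of the 3 ligands lay within 2-fold in both lines. Those of TGFB1 were -0.36 to 0.80 in EZH1-/- and -0.23 to 0.93 in EZH2-/- H1 cells. TGFB2 and TGFB3 were so low here that the added 1 shrinks their changes, so their intervals do not bound the fold in TPM. TGFB2 was 0.24 and 0.15 TPM in EZH1-/- H1 and 0.53 and 0.48 TPM in WT H1 cells. LTBP2 had the widest intervals, which reached past 2-fold in either direction in both lines.

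**Figure D1:**
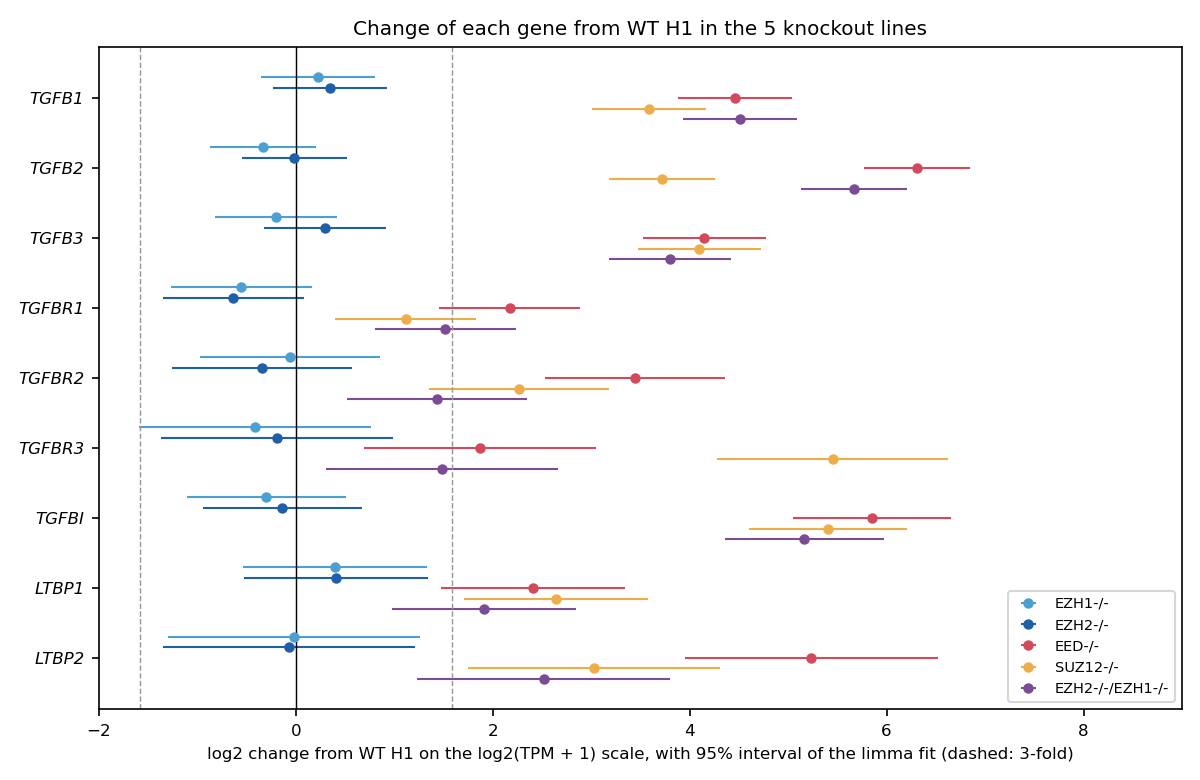
Change of each gene from WT H1 on the log2(TPM + 1) scale in the 5 knockout lines, with the 95% interval of the limma fit and dashed lines at 3-fold. EZH1-/- and EZH2-/- H1 intervals all include 0, and among PRC2-null lines the intervals of SUZ12-/- H1 stand apart for TGFB2 (lower) and TGFBR3 (higher).

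The PRC2-null lines were then compared with each other, which shows whether loss of different subunits came with the same levels of these genes. Between SUZ12-/- and EED-/- H1 cells 2 of the 9 genes passed, beside 6.12% of all genes tested. TGFB2 was lower in SUZ12-/- H1 by a log2 change of -2.59 (95% interval -3.13 to -2.05, adjusted p = 5.49e-05), and TGFBR3 was higher by 3.58 (95% interval 2.41 to 4.76, adjusted p = 0.0010). With the SUZ12-/- samples averaged to 1, or without EED-/- H1 replicate 1 or either SUZ12-/- sample, TGFBR3 no longer passed, at an adjusted p of at most 0.016, and TGFB2 did.

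Between SUZ12-/- and EZH2-/-/EZH1-/- H1 cells the same pair of genes passed, beside 4.46% of all genes tested. TGFB2 differed by -1.95 (95% interval -2.49 to -1.41, adjusted p = 4.40e-04) and TGFBR3 by 3.97 (95% interval 2.79 to 5.14, adjusted p = 6.94e-04). Neither passed with the SUZ12-/- samples averaged to 1 or without either of them, at adjusted p of up to 0.014 and 0.012, nor in a fit of only these 4 samples. Both comparisons share the SUZ12-/- samples. The ligand that betaglycan is best known to present was thus the lowest of the PRC2-null lines, and betaglycan itself the highest, in the same line. SUZ12-/- H1 cells were also the line with the highest mesenchymal and endoderm marker sums, whose part in these differences was not tested.

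Between EZH2-/-/EZH1-/- and EED-/- H1 cells limma called 0 of the 9 genes, beside 0.089% of all genes tested. TGFBR2, LTBP2 and TGFB2 had an unadjusted p under 0.05, beside 20.1% of all genes tested. TGFBR2 differed by -2.01 on the log2 scale (adjusted p = 0.057). For LTBP2 the difference was -2.72 (adjusted p = 0.059), and it was -0.64 for TGFB2 (adjusted p = 0.19). TGFBR2 and LTBP2 passed without EZH2-/-/EZH1-/- H1 replicate 1. TGFB1 was close in these lines, at 0.05 (95% interval -0.53 to 0.63).

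DOX withdrawal from H1-EED-/-/EED-OE cells gave the order in time in which the genes departed from their level with DOX, with 1 sample a day and so no test of a single day. The same DOX sample is the reference for all days. The values with DOX lay below all retaining samples for TGFBR1 (5.87 TPM), LTBP1 (9.40 TPM), LTBP2 (0.39 TPM) and TGFBR3 (0.79 TPM), which enlarges their fold changes against that sample. Past 3-fold higher than with DOX on the log2(TPM + 1) scale were 1 gene on day 8 (TGFB2), 0 on day 12, 1 on day 16 (TGFB1), 5 on day 20, 8 on day 24 and all 9 on day 28. The shares of all genes past that fold were 2.93%, 3.08%, 4.13%, 9.62%, 13.9% and 18.8% on these days.

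TGFB1 was at its DOX level on day 8 and past 3-fold on every day from 16 on. It was 6.44 TPM with DOX and 6.42, 18.05, 37.50, 141.20, 420.84 and 285.66 TPM on days 8, 12, 16, 20, 24 and 28. Every day from 12 to 24 was higher than the one before, and day 28 was 44.4 times the level with DOX. A line over the 6 days, fitted with limma, gave TGFB1 a rise of 5.95 on the log2 scale from day 8 to day 28 (SE 0.63, adjusted p = 0.0082), the only one of the 9 genes called, beside 1.36% of all genes tested that rose. All 9 genes had a positive slope and an unadjusted p under 0.05, a threshold that 37.0% of the 17099 genes tested met, with slopes in either direction. TGFB3 passed the filter on low values only through days 20 to 28, so its direction was set beforehand and it is not counted as support. The call of TGFB1 was lost without day 8, 12, 24 or 28, with no filter on low values, under median ratio scaling, without the trend and robust options and on log2 of the day.

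TGFB2 had a small early value and a late one. It was 0.31 TPM with DOX and 3.72, 0.44, 0.83, 1.60, 28.40 and 54.79 TPM on the 6 days. The day 8 value, above days 12 to 20, rests on 1 sample. TGFB3 was 0.63 TPM with DOX and 0.71, 0.97, 0.57, 4.0, 1.86 and 14.00 TPM on these days, so that day 24 lay below day 20. TGFB1 held 59.2% of the summed ligand TPM on day 8, within the range of the PRC2-null samples, with TGFB2 at 34.3%. It held 92.8 to 96.4% on days 12 to 24 and 80.6% on day 28, a larger share than in any PRC2-null sample.

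Of the receptors, TGFBR3 and TGFBR1 were past 3-fold of the DOX sample from day 20 and TGFBR2 from day 24. This order depends on the reference. Against the mean of WT H1, TGFBR3 was past 3-fold from day 24, TGFBR2 on day 28 and TGFBR1 on no day. TGFBR1 was 5.87 TPM with DOX and 16.33, 14.73, 18.02, 20.71, 36.15 and 32.40 TPM on the 6 days. Day 8 was higher than with DOX by 1.33 on the log2 scale, yet days 8 to 16 lay within the range of the retaining lines. TGFBR2 was 3.92 TPM with DOX, 3.20 to 4.83 TPM on days 8 to 20 and 19.72 and 21.78 TPM on days 24 and 28, a step between days 20 and 24. TGFBR3 was 0.79 TPM with DOX and 2.12, 1.56, 2.13, 6.54, 22.59 and 12.93 TPM on the 6 days.

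TGFBI stepped up at the same point as TGFBR2. It was 12.85 TPM with DOX, 10.44 to 22.28 TPM on days 8 to 20 and 291.60 and 332.44 TPM on days 24 and 28. LTBP1 was 9.40 TPM with DOX and 14.58, 16.60, 18.99, 35.22, 61.34 and 41.53 TPM on the 6 days. LTBP2 was 0.39 TPM with DOX and 1.92, 1.46, 0.39, 1.74, 4.10 and 16.40 TPM on the 6 days.

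On day 28, 7 of the 9 genes had not reached the range of the 2 samples of EED-/- H1 cells, which lack EED throughout. TGFB2, at 54.79 TPM, was below their 112.93 to 123.98 TPM, and TGFBR1, at 32.40 TPM, below their 78.83 to 92.29 TPM. TGFB1, at 285.66 TPM, and TGFBR3, at 12.93 TPM, were above their ranges. Marker sums moved on the same days. The endoderm, yolk sac and liver markers summed to 5.38 to 87.02 TPM with DOX and on days 8 to 16, 448 TPM on day 20 and 600 to 1363 TPM on days 24 and 28. The mesenchymal and smooth muscle markers summed to 204 to 962 TPM, 349 TPM and 2876 to 4446 TPM at these times, and the endothelial markers to 44 to 196 TPM, 161 TPM and 336 to 568 TPM. Most of the mesenchymal sum of the retaining samples was THY1 (347 to 688 TPM), which hESCs also express and which was 219 TPM on day 20. The other 9 mesenchymal markers summed to 35.2 to 47.5 TPM in the retaining samples, 43.6 to 57.7 TPM with DOX and on days 8 to 16, 130 TPM on day 20 and 2679 to 4005 TPM on days 24 and 28. They were thus above every retaining sample on day 20, when TGFB1 was at 141.20 TPM. The highest of the values with DOX and on days 8 to 16 was also above every retaining sample. The same held for the endoderm, yolk sac and liver sum. Trophoblast markers summed to at most 69.02 TPM and neural markers to at most 534 TPM on the days. The part of these cells in the levels was not tested.

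The other genes of the pathway were followed in 6 lists with 48 genes listed in the files. In the comparison of PRC2-null with retaining lines 31 of the 48 rose, 0 fell and 17 did not pass, beside 2579 that rose and 972 that fell of 19100 genes tested. Of the 48, 8 were below 1 TPM in at least 5 of the 6 retaining samples and passed the filter on low values through the PRC2-null samples, so that their direction was set beforehand. They were ITGB6, DCN, FMOD, ASPN, A2M, ACVRL1, CDKN2B and SNAI2, of which all but ASPN rose. Of the other 40, 24 rose, beside 10% of the genes tested that met the same condition, and their median log2 change was 2.41, against 0.10.

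Of 12 other genes for latency, storage and activation, 10 rose, or 9 of 11 without ITGB6. FBN1, the fibrillin to which LTBPs attach, rose by 5.29, and ITGB6, the β6 integrin subunit that releases active ligand, by 4.61. THBS1, a thrombospondin that can activate latent TGF-β, rose by 4.48, and LRRC32, which holds the latent ligand at the cell surface, by 4.30. LTBP4 (0.74, adjusted p = 0.0082) and NRROS (-0.78, adjusted p = 0.0018), the surface anchor of myeloid cells and microglia, passed the FDR below 3-fold. Of 5 proteins that bind or trap the ligand, 4 rose, but only BGN was not among the 8 genes above. They were BGN (6.73), A2M (6.15), DCN (5.98) and FMOD (4.50), a set of matrix proteoglycans and a plasma protease inhibitor, and ASPN (0.95) stayed below 3-fold. DCN was 2165 to 2287 TPM in SUZ12-/- H1 and at most 30.92 TPM in the other PRC2-null lines.

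Of 7 other receptors and receptor partners, 3 rose, or 2 of 6 without ACVRL1. They were DAB2, an endocytic adaptor that binds the receptors (4.58), ACVRL1, a type I receptor of endothelial cells (3.82), and ENG, the endothelial co-receptor endoglin (3.02). TGFBRAP1 (0.75, adjusted p = 0.0018) stayed below 3-fold and TGFBR3L had a change of -0.51 (adjusted p = 0.22). Inside the cell changes were fewer. Of the 3 transducers SMAD3 rose by 2.00, while SMAD2 had 0.67 (adjusted p = 0.0013) and SMAD4 0.31 (adjusted p = 0.32).

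Of 10 inhibitors and feedback genes 2 rose, the pseudoreceptor BAMBI by 4.16 and the inhibitory SMAD7 by 1.63. PMEPA1 (1.48) and the ubiquitin ligase SMURF2 (1.38) passed the FDR below 3-fold. In SUZ12-/- H1 cells against WT H1, TGIF1, a corepressor of SMADs, fell by 2.08 on the log2 scale (adjusted p = 5.51e-06), the only fall of a listed gene in any line, and it is named after its value was seen. All 11 well known transcriptional targets rose, with IGFBP3 (7.19), CDKN2B (7.13), FN1 (6.55) and COL1A1 (6.04) the largest, and so did 9 of 9 without CDKN2B and SNAI2. They encode an IGF-binding protein, a cyclin-dependent kinase inhibitor, fibronectin and a collagen, and other signals also drive each of them.

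Against WT H1, the number of the 48 genes that rose was 33 for EED-/-, 32 for EZH2-/-/EZH1-/- and 29 for SUZ12-/- H1 cells, with the 8 genes above among those tested and beside 16.2%, 11.6% and 14.5% of all genes tested. In EZH1-/- and EZH2-/- H1 cells limma called 0. An unadjusted p under 0.05 was found for 4 of the 48 in each, or 8.33%, beside 16.0% and 5.81% of all genes tested. Over the withdrawal days 5 rose (FBN1, FURIN, DAB2, CDKN1A and FN1, named after their values were seen), beside 1.36% of all genes tested, and 2 were not tested. An unadjusted p under 0.05 was found for 36, or 78.3% of the 46 tested, beside 37.0% of all genes, with slopes in either direction. DCN and A2M passed the filter on low values only through days 24 and 28, and FMOD only through days 20 to 28. Their direction was thus set beforehand, and they are not counted as support.

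Over all 19 samples, the genes whose levels were most like those of each gene were found by Pearson's r of log2(TPM + 1) among 19721 genes. The points share the split between undifferentiated and differentiated samples, which all genes that follow it have in common, so r is a description only. TGFB1 was most like HOXA9 (r = 0.979), SOX17 and NKX2-5, and TGFB2 most like SPSB1 (r = 0.986), CDKN2B and FAM198B. TGFB3 was most like MUM1L1 (r = 0.980), EPHA3 and TTR. The nearest genes to the receptors were SUCO, GOPC and FRYL for TGFBR1 (highest r = 0.973), JAK1 and GNG12 for TGFBR2 (0.977) and FENDRR, IL1R1 and TCF21 for TGFBR3 (0.976). TGFBI was most like the collagen gene COL1A2 (r = 0.989), CHPF2 and SYTL4, LTBP1 like CNTN4 (r = 0.982), PDZD2 and CLCN5, and LTBP2 like FBXO34 (r = 0.982), MMRN1 and ADGRF5. None of these nearest genes was itself one of the 9. Among the 9, r was highest between TGFB2 and TGFBI (0.950) and lowest between TGFB2 and TGFBR3 (0.640).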

How the data were processed

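The authors made TruSeq libraries without strand information, used Bowtie2 and RSEM on human mRNA sequences of GRCh38, and deposited 1 TPM value per gene and sample for 33382 genes in 19 samples. TPM sum to 999999.2 to 1000001.0 per sample, so read counts and depth are unknown and no interval that needs them is given. The study describes edgeR on counts, for which TPM are not suited. limma 3.58.1 in R 4.3.3 (lmFit, contrasts.fit, eBayes with trend and robust) was fitted to log2(TPM + 1) over 12 samples of 6 lines for the 19100 genes with at least 1 TPM in at least 2 samples, and as a line over 6 days for 17099 genes. Fold changes on this scale understate the change of low genes. Adjusted p-values are Benjamini-Hochberg over all genes tested, and calls needed 1% FDR and 3-fold. p-values of the lines rest on the spread between samples of a line, pooled over all 6 lines and not only those compared. The labels tie this spread to clones or passages and not to separate experiments. Spread between the lines of a group does not enter the p-values of PRC2-null against retaining lines.

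The genes described and all lists were chosen with earlier results of these data known. Genes named from lists were up to 4 called and up to 2 not called per list with the largest change, CCN2 being listed as CTGF, and the 3 most alike by Pearson's r, of which 1 is not reported here. Replicate numbers are in accession order and only name samples. The script was tested on simulated data. Positions are from GENCODE 44 on GRCh38 and promoter windows from RefSeq on GRCh38.p14. No batch is named in the labels. Figures were drawn with matplotlib 3.10.9.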

Additional observations from a re-analysis of the deposited data

Results flagged for a closer look

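TGFB2 and TGFBR3 are listed because their levels differed between PRC2-null lines by a direct test. Between SUZ12-/- and EED-/- H1 cells the log2 differences were -2.59 for TGFB2 and 3.58 for TGFBR3. Between SUZ12-/- and EZH2-/-/EZH1-/- H1 cells they were -1.95 and 3.97. TGFB2 passed in 18 of 18 alternatives against EED-/- H1 and in 15 of 18 against EZH2-/-/EZH1-/- H1 cells, and TGFBR3 in 14 and 15 of 18. The losses came when the SUZ12-/- samples were averaged to 1, when either of them was left out, or, for TGFBR3 against EED-/- H1, when EED-/- H1 replicate 1 was left out. A fit of only the 4 samples of SUZ12-/- and EZH2-/-/EZH1-/- H1 cells, not among the 18, called neither gene. With at least 1 TPM required in every sample, also not among the 18, neither gene was tested.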

How the results depend on the processing

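The log2 changes of the 9 genes between PRC2-null and retaining lines kept their direction and their call in all 171 alternatives in which they were fitted singly, and the numbers of genes called moved by more than 1.5 times in 34 of 169. Among the 171, those of TGFB2, TGFB3 and LTBP2 are not counted as support, since these genes passed the filter through the PRC2-null samples. A filter of at least 1 TPM in every sample was not among the 171. With at least 1 TPM required in every sample, only 5 of the 9 were tested, namely TGFB1, TGFBR1, TGFBR2, TGFBI and LTBP1. All 5 were called between PRC2-null and retaining lines and in EED-/- H1 against WT. Against WT, 3 of the 5 were called for EZH2-/-/EZH1-/- and 4 for SUZ12-/- H1. In SUZ12-/- against EED-/- or EZH2-/-/EZH1-/- H1 cells 0 were called, with TGFB2 and TGFBR3 not tested. An FDR of 5% without a fold cutoff called 5 in SUZ12-/- against EED-/- H1 and 6 over the days. With the SUZ12-/- samples averaged to 1, chosen after seeing the data, 1 was called in SUZ12-/- against EED-/- H1 and 0 against EZH2-/-/EZH1-/- H1, and a fit of only the latter 4 samples also called 0. Leaving out each sample gave 1 to 2 calls in SUZ12-/- against EED-/- H1, 0 to 2 in EZH2-/-/EZH1-/- against EED-/- H1, 0 to 2 in SUZ12-/- against EZH2-/-/EZH1-/- H1, 4 to 9 in EZH2-/-/EZH1-/- and 6 to 7 in SUZ12-/- H1 against WT (8 with all samples), and 0 to 1 over the days. Over the days, no filter, median ratio scaling, eBayes without trend and robust, and log2 of the day each called 0, and the DOX sample, whose title carries day 28, called 2 when set as day 0. Past 3-fold on single days, a pseudocount of 0.1 gave 2, 1 and 2 genes on days 8, 12 and 16, a fold of 2 gave 3, 2 and 2, and day 20 had 3 under median ratio scaling and 2 against WT H1. Except where the construction shows it, the cause was not tested. Median ratio scaling shifted the median gene by -0.30 for EED-/-, -0.11 for EZH2-/-/EZH1-/- and -0.14 for SUZ12-/- H1 against WT, and by 0.17 to 0.19 in the lines set against EED-/- H1.

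The deviations of samples with the same number correlated by -0.12 to 0.22 over 15 pairs of lines, so the numbers do not pair samples, and a replicate block called 9 genes between PRC2-null and retaining lines and 8, 8 and 6 in EED-/-, SUZ12-/- and EZH2-/-/EZH1-/- H1 against WT. With 2 samples a line and 1 a day, the levels of low genes and single days carry no further check of error.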
